A study of Mus musculus with 7 samples.

Results

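The angiopoietin-Tie and apelin axes were followed through 8 genes, taken by symbol from the 23358 gene entries of the authors' deposited table. They encode the receptors Tek (TIE2) and Tie1, the phosphatase Ptprb, the ligands Angpt1 and Angpt2, the secreted relative Angptl4, the peptide Apln and its receptor Aplnr. The study set cells sorted from brains of C57Bl6 mouse embryos at E14.5 that lacked Tgfbr2, which encodes a receptor of the cytokine TGF-β, against the same sort from control embryos. There were 4 Tgfbr2-deficient and 3 control libraries, both labelled as endothelial and both sorted on TdTomato, which the Ai14 reporter allele makes once Cre recombinase has acted. Neither the Cre driver and the deleted exons nor the alleles of the controls are given in the sources used here. Each library was made from the RNA of 2000 to 5000 cells and read with single-end reads of 50 bases. The values are FPKM, fragments counted per kilobase of transcript and scaled to the size of the library, of which the authors' table holds 1 per gene and group. Values per library were not analysed here, so the spread between libraries and their depth are unknown, and the authors' q-value is the error measure of each gene. Whether each library came from its own embryo is not in the labels, so the spread between libraries may be technical. The settings of the authors' test are not stated, so which spread the q-values cover is unknown.

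As background, TIE2 is a receptor tyrosine kinase of endothelium. Angiopoietin 1, made largely by mural and mesenchymal cells, activates it and stabilises vessels, whereas angiopoietin 2, stored and released by endothelium itself, weakens that signal in many settings. TIE1 modulates TIE2 in a complex with it, and VE-PTP, the product of Ptprb, removes phosphate from TIE2. Apelin is a short peptide hormone of sprouting tip cells that acts on a G protein-coupled receptor of venous and growing endothelium. Angiopoietin-like 4 shares the fold of the angiopoietins but is best known as an inhibitor of lipoprotein lipase, induced by hypoxia and by fatty acids.

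The labels were checked first against Tgfbr2 and against markers of the sorted cells. Tgfbr2 stood at 65.4 FPKM in Tgfbr2-deficient cells and 91.1 FPKM in control cells, a difference that did not pass in the authors' deposited table (p = 0.0433, q = 0.0953, log2 fold −0.48). A gene-level FPKM can hold reads from exons left after recombination, so this value does not measure the loss of functional transcript. Among markers of microglia and macrophages 16 of 20 fell and 0 rose, with a summed level of 6362 FPKM in Tgfbr2-deficient cells and 13384 FPKM in control cells. By the calling rule given below, 14.7% of all tested genes fell and 23.9% rose. The 18 pan-endothelial markers that are not among the 8 genes summed to 479 FPKM in Tgfbr2-deficient cells and 88.3 FPKM in control cells. Median levels of the macrophage and endothelial markers were 189 and 17.1 FPKM in Tgfbr2-deficient cells, and 467 and 1.94 FPKM in control cells. In both groups, and most in control cells, macrophage markers thus stood far above endothelial ones, although the labels call the cells endothelial. The reason was not tested. In such bulk samples, fewer cells of a type and less RNA per cell cannot be told apart.

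Of the 8 genes, 7 were higher in Tgfbr2-deficient cells and 0 were lower, while Angptl4 alone did not pass. A gene was called where the authors had tested it, it reached 1 FPKM in at least 1 group and its q-value in the authors' deposited table was under 0.05, and all 8 genes met the first pair of conditions. By the same rule 23.9% of 13356 tested genes were higher and 14.7% were lower. Genes of low abundance were more often higher, and among the 6640 tested genes whose mean level lay in the range of the 7 called genes, 38.2% were higher. The median log2 fold of the 8 genes on FPKM + 1 was 2.21, beside −0.08 over all tested genes and 0.29 over the genes of that range. Adding 1 FPKM before the logarithm pulls genes near 1 FPKM towards 0, so folds on this scale understate the change of the rarest genes. In control cells 5 of the 8 genes stood below 1 FPKM, and in Tgfbr2-deficient cells 0 did. Those 5, Tek, Angpt1, Angpt2, Ptprb and Apln, met the condition of 1 FPKM only through the Tgfbr2-deficient value, so none could be called lower. With no minimum FPKM, 7 of the 8 genes were likewise higher. That outcome was fixed in advance, because all 8 genes had already met the minimum.

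**Figure D1:**
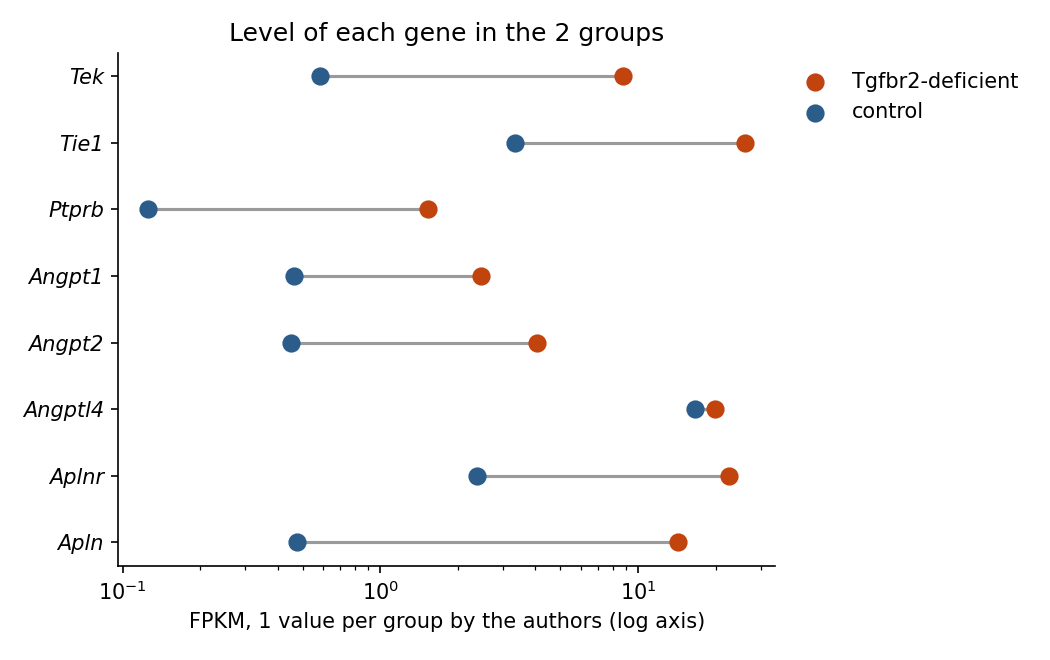
Level of each of the 8 genes in FPKM on a log axis, 1 value per group as the authors made it (Tgfbr2-deficient in orange, control in blue), with no error bars because values per library were not analysed. For 7 genes the Tgfbr2-deficient value lies far to the right of the control value, and for Angptl4 the values of 19.8 FPKM (Tgfbr2-deficient) and 16.7 FPKM (control) nearly coincide.

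In Tgfbr2-deficient cells the genes ranked, from the highest FPKM down, as Tie1, Aplnr, Angptl4, Apln, Tek, Angpt2, Angpt1 and Ptprb. In control cells Angptl4 came first, followed by Tie1, Aplnr, Tek, Apln, Angpt1, Angpt2 and Ptprb. FPKM is scaled to transcript length, so levels of different genes can be set side by side, but without values per library it is unknown which neighbours in either order differ beyond their spread. The levels of Tek, Apln, Angpt1 and Angpt2 in control cells all lay between 0.451 and 0.586 FPKM.

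Tek, the angiopoietin receptor TIE2, stood at 8.72 FPKM in Tgfbr2-deficient cells and 0.586 FPKM in control cells, a ratio of 14.9. The authors' deposited table gives it p = 5e-05, the smallest p-value there and one shared by 2357 tested genes, with q = 0.00029 and a log2 fold of 3.90. Its level exceeded that of 45.7% of tested genes in Tgfbr2-deficient cells and of 7.02% in control cells. Tek is a protein-coding gene (ENSMUSG00000006386.15) on the plus strand of chromosome 4, from 94739289 to 94874976 in GENCODE M21 on the mm10 assembly.

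Tie1, the partner receptor that binds no angiopoietin with high affinity by itself, stood at 26.0 FPKM in Tgfbr2-deficient cells and 3.33 FPKM in control cells, a ratio of 7.82. In the authors' deposited table its log2 fold was 2.97, with q = 0.00029. It was the most abundant of the 8 genes in Tgfbr2-deficient cells, above 76.6% of tested genes there and above 30.1% in control cells. Tie1 (ENSMUSG00000033191.14) is protein-coding and lies on the minus strand of chromosome 4 from 118471191 to 118490061.

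Ptprb, which encodes the phosphatase VE-PTP, was the least abundant in both groups, with 1.53 FPKM in Tgfbr2-deficient cells and 0.126 FPKM in control cells, a ratio of 12.2. Its log2 fold of 3.60 had q = 0.00029 in the authors' deposited table. Because its control level was so low, the fold was 1.17 on FPKM + 1. Ptprb (ENSMUSG00000020154.10) is protein-coding on the plus strand of chromosome 10 from 116275523 to 116389535. Its locus in the authors' deposited table starts inside the gene, at 116301374. Gm47625 and Gm26495 overlap Ptprb on the same strand, and their part in its values was not tested.

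The 3 genes of the receptor complex were all higher, by unequal ratios. For each FPKM of Tek there were 2.99 FPKM of Tie1 in Tgfbr2-deficient cells and 5.68 FPKM in control cells. For each FPKM of Tek there were 0.176 FPKM of Ptprb in Tgfbr2-deficient cells and 0.215 FPKM in control cells. These ratios carry no error and were not tested, and with 1 FPKM added to each value the control ratios became 2.73 for Tie1 and 0.710 for Ptprb.

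The promoters of the pair of Tie receptors are shown because both genes were raised by a similar amount on FPKM + 1, by log2 folds of 2.62 for Tek and 2.64 for Tie1. Each runs 5′ to 3′ on the strand of its gene, over 300 bases, from 250 bases before to 50 bases after 1 start per window in the RefSeq promoter table for GRCm38.p6, the assembly also called mm10. For Tek that start is 94739289, which is also the GENCODE M21 gene start, while the outermost start of the gene in RefSeq is 94739086. For Tie1 it is 118489849, the RefSeq gene start on the minus strand, while the GENCODE M21 gene runs to 118490061. Other starts of these genes were not searched for motifs. Of the 8 genes, Tek, Tie1 and Apln had an entry in the RefSeq promoter table, and Angpt1, Angpt2, Ptprb, Angptl4 and Aplnr had none. Capitals mark GGAA or its reverse complement TTCC, the core that ETS transcription factors of endothelium bind. The Tek window is chr4:94739039-94739338 on the plus strand and the Tie1 window is chr4:118489800-118490099 on the minus strand.
Tek: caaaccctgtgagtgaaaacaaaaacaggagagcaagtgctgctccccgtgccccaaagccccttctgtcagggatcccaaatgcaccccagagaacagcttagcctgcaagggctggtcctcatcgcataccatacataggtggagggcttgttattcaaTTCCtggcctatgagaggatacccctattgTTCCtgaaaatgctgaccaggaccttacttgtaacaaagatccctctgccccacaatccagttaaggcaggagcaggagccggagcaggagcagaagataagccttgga
Tie1: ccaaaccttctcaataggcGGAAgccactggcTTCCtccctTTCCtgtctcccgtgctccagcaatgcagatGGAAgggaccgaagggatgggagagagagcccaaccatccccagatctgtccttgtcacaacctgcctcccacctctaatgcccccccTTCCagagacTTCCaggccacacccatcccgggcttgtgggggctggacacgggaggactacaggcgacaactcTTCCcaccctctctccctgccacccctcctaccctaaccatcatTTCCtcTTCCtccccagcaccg

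The ETS core occurred 9 times in the Tie1 window and 2 times in the Tek window, counted on both strands. At least 1 copy stands in 96.0% of all 32851 promoter windows of the table, with a mean of 3.52 per window, so its presence sets neither gene apart. The longer form AGGAAG, which contains that core, occurred 2 times in the Tie1 window and 0 times in the Tek window, and stands in 35.4% of all windows. The GATA motif AGATAA occurred 1 time in the Tek window and 0 times in the Tie1 window, against 11.2% of all windows that hold it. The KLF motif CACCC occurred 1 time in the Tek window and 3 times in the Tie1 window and stands in 57.5% of all windows. Neither window held the FOX motif TGTTTA (13.4% of all windows) or the SMAD motif CAGAC (49.6%). A match is a run of letters and was not tested for binding.

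Of the ligands, Angpt1, the activating ligand, stood at 2.47 FPKM in Tgfbr2-deficient cells and 0.463 FPKM in control cells, a ratio of 5.33. In the authors' deposited table its log2 fold was 2.41 with q = 0.00029. It had the smallest ratio of the 7 genes that passed. Angpt1 (ENSMUSG00000022309.9) is protein-coding on the minus strand of chromosome 15 from 42424723 to 42676977, and its 5′ end overlaps the antisense gene Gm17473. The libraries do not mark strand, so reads of the overlap cannot be assigned to one of them.

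Angpt2, the context-dependent antagonist, stood at 4.06 FPKM in Tgfbr2-deficient cells and 0.451 FPKM in control cells, a ratio of 9.0. It passed with the weakest support of the 7 genes, at p = 0.0122 and q = 0.0342 for a log2 fold of 3.17 in the authors' deposited table, and it would be lost at a threshold of 0.01. Its test statistic there was 2.2, against 3.85 to 7.43 for the other genes that passed, although its fold was larger than those of Angpt1 and Tie1. Angpt2 (ENSMUSG00000031465.6) is protein-coding on the minus strand of chromosome 8 from 18690263 to 18741562. In the authors' deposited table its locus runs from 18595173 to 18803188, beyond the gene on both sides. The gene lies wholly inside Mcph1, a gene of chromosome condensation transcribed from the other strand, so reads from Mcph1 introns and from Angpt2 cannot be told apart. Mcph1 itself stood at 4.49 FPKM in Tgfbr2-deficient cells and 4.96 FPKM in control cells and did not pass (q = 0.761 in the authors' deposited table). The overlap with Mcph1 was not tested as a source of the Angpt2 values.

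Set against each other, there were 0.608 FPKM of Angpt1 for each FPKM of Angpt2 in Tgfbr2-deficient cells and 1.03 FPKM in control cells. This ratio was not tested, and its control value rests on a pair of levels below 0.5 FPKM.

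Angptl4 was the 1 gene of the 8 that did not pass. It stood at 19.8 FPKM in Tgfbr2-deficient cells and 16.7 FPKM in control cells, a ratio of 1.19 (p = 0.301, q = 0.431, log2 fold 0.25 in the authors' deposited table). In control cells it was the most abundant of the 8 genes, above 63.2% of tested genes; the next in order, Tie1, stood at 3.33 FPKM there. The missed threshold does not show that the groups have equal levels, and no interval can be set without values per library. Angptl4 (ENSMUSG00000002289.16) is protein-coding on the minus strand of chromosome 17 from 33773750 to 33781830, with no overlapping gene in GENCODE M21.

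Apln, the apelin precursor, had the largest ratio of the 8 genes. It stood at 14.3 FPKM in Tgfbr2-deficient cells and 0.475 FPKM in control cells, a ratio of 30.0, with a log2 fold of 4.91 and q = 0.00029 in the authors' deposited table. On FPKM + 1 its log2 fold of 3.37 exceeded that of 99.6% of tested genes. Apln (ENSMUSG00000037010.7) is protein-coding on the minus strand of the X chromosome from 48025146 to 48034853.

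Its promoter is shown as that of the gene with the largest change, over the same stretch of 300 bases around the RefSeq start, at chrX:48034804-48035103 on the minus strand, with the ETS core again in capitals.
Apln: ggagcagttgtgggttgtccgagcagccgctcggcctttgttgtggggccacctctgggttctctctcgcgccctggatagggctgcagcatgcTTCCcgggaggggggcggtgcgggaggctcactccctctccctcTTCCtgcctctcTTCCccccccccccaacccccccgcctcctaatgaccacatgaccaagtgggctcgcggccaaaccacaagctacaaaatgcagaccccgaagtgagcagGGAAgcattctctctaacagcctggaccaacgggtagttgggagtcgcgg

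The Apln window held the ETS core 4 times, its longer form AGGAAG 1 time and the SMAD motif CAGAC 1 time, which stands in 49.6% of all windows. Its GC content was 64.0%, beside a median of 52.7% over all windows. The core sites of hypoxia-inducible factors, ACGTG and GCGTG, occurred 0 times in the Apln window and 0 times in those of Tek and Tie1, while they stand in 19.6% and 32.4% of all windows. This says only that these letters are not in these windows.

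Aplnr, the apelin receptor, stood at 22.6 FPKM in Tgfbr2-deficient cells and 2.38 FPKM in control cells, a ratio of 9.47. Its log2 fold was 3.24 with q = 0.00029 in the authors' deposited table. Ligand and receptor were both raised, the ligand by more: there were 0.632 FPKM of Apln for each FPKM of Aplnr in Tgfbr2-deficient cells and 0.199 FPKM in control cells, a comparison that was not tested. With 1 FPKM added to each value the ratio became 0.648 in Tgfbr2-deficient cells and 0.436 in control cells. Aplnr (ENSMUSG00000044338.9) is protein-coding on the plus strand of chromosome 2 from 85136225 to 85139923.

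Apela, the other ligand of this receptor, was listed under its older symbol Gm10664 at 0.188 FPKM in Tgfbr2-deficient cells and 0.0805 FPKM in control cells and was not tested by the authors.

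**Figure D2:**
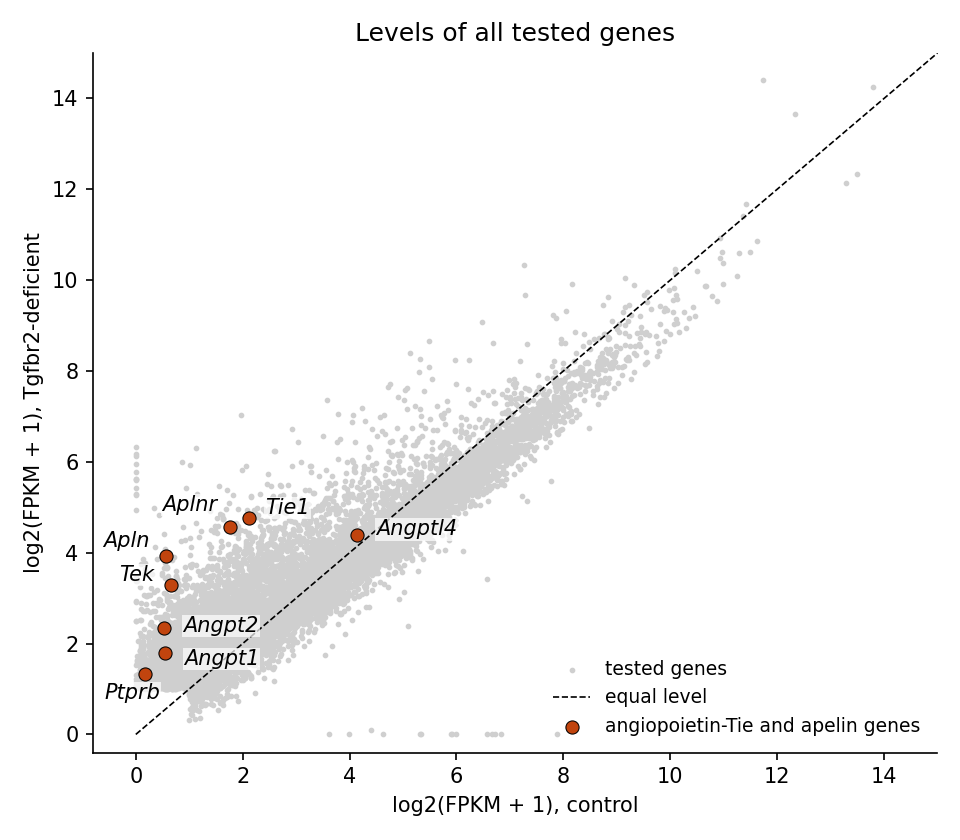
Level of every tested gene as log2(FPKM + 1) in Tgfbr2-deficient cells (vertical) against control cells (horizontal), with the 8 genes in orange and the line of equal level dashed. All but Angptl4 lie well above the dashed line, Apln at 14.3 FPKM in Tgfbr2-deficient cells against 0.475 FPKM in control cells, and Angptl4 lies near it at 19.8 FPKM in Tgfbr2-deficient cells against 16.7 FPKM in control cells.

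Because most endothelial genes were higher in Tgfbr2-deficient cells, the 8 genes were set beside 18 pan-endothelial genes that do not include them. Of these, 17 rose and 0 fell, and Egfl7, at 64.7 FPKM in Tgfbr2-deficient cells and 47.7 FPKM in control cells, did not pass. Over all tested genes 23.9% rose and 14.7% fell. The median log2 fold of the 18 genes on FPKM + 1 was 2.74, and the single genes ranged from 0.43 for Egfl7 to 3.91 for Kdr, the main VEGF receptor. The folds of Tek, Tie1 and Aplnr lay within 0.12 of that median. Apln lay 0.63 above it, and 3 of the 18 genes had a larger fold. Angpt2 lay below it by a difference of −0.93, Angpt1 of −1.49, Ptprb of −1.57 and Angptl4 of −2.50. These differences were not tested. They depend on the pseudocount for genes whose control level differs from that of the list: at a pseudocount of 0.1 FPKM the difference became −0.72 for Tie1, −0.79 for Ptprb, −0.45 for Aplnr, 0.04 for Tek and 0.997 for Apln.

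Without any pseudocount, levels can be given as a percent of the median FPKM of the same 18 genes, which was 17.1 FPKM in Tgfbr2-deficient cells and 1.94 FPKM in control cells. On this scale Angpt2 stood at 23.7% in Tgfbr2-deficient cells and 23.2% in control cells. Aplnr stood at 132% in Tgfbr2-deficient cells and 123% in control cells, and Tie1 at 152% in Tgfbr2-deficient cells and 172% in control cells. Tek stood at 50.9% of the median in Tgfbr2-deficient cells and 30.2% in control cells. Apln stood at 83.2% in Tgfbr2-deficient cells and 24.5% in control cells. Angpt1 stood at 14.4% in Tgfbr2-deficient cells and 23.8% in control cells. Ptprb stood at 8.94% in Tgfbr2-deficient cells and 6.48% in control cells. The median level is taken within each group, and different genes can set it. A rise in percent therefore does not place a gene above the median fold of the 18 genes. Ptprb lay below that median fold at both pseudocounts, by differences of −1.57 at 1 FPKM and −0.79 at 0.1 FPKM. Angptl4 stood at 116% in Tgfbr2-deficient cells and 860% in control cells. As a percent of the median level in its own group, Angptl4 was therefore lower in Tgfbr2-deficient cells while its FPKM was nearly equal. Angpt1 and, by less, Tie1 were lower on this scale, Apln, Tek and Ptprb were higher, and Angpt2 and Aplnr were close to level. At a pseudocount of 0.1 FPKM only Apln and Tek lay above the median fold, and Angpt2 differed from it by −0.73 and Aplnr by −0.45. None of these comparisons was tested.

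**Figure D3:**
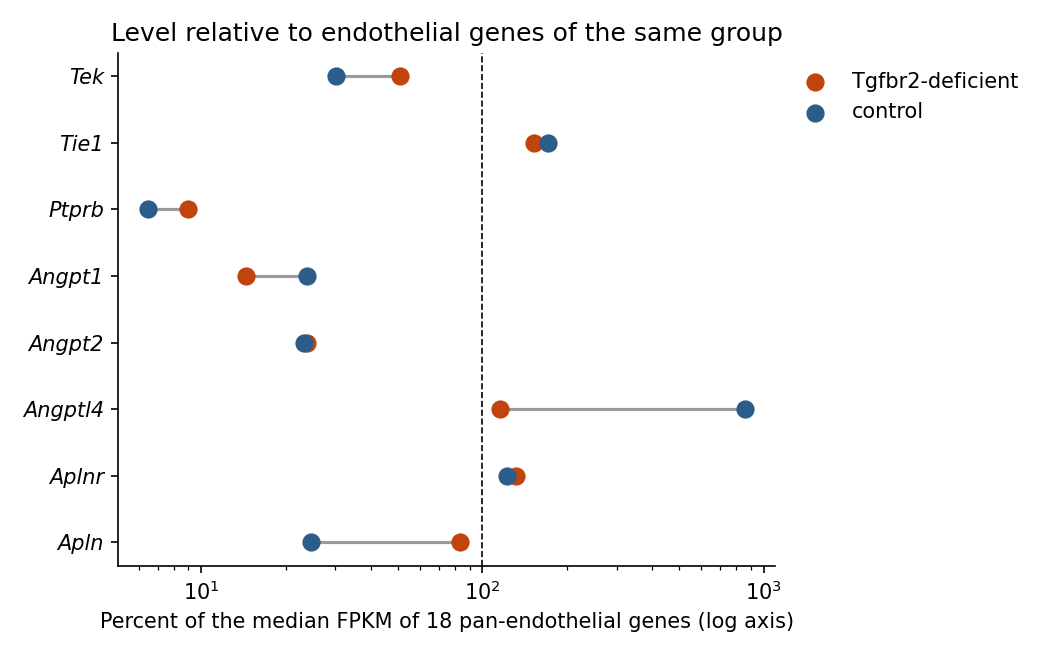
Level of each gene as a percent of the median FPKM of 18 pan-endothelial genes in the same group, on a log axis, with Tgfbr2-deficient in orange, control in blue and 100% dashed. The points of Angpt2 nearly coincide at 23.7% (Tgfbr2-deficient) and 23.2% (control), while Apln lies further right in Tgfbr2-deficient cells (83.2%, against 24.5% in control cells) and Angptl4 further left (116%, against 860% in control cells).

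Several of the 8 genes are also made outside endothelium, for instance Angpt1 by mural cells, fibroblasts and megakaryocytes, and marker genes of such cells moved in the same comparison. Beside the counts that follow, 23.9% of all tested genes rose and 14.7% fell. Among tested markers of pericytes and smooth muscle 10 of 14 rose and 0 fell, with a median log2 fold of 2.03 on FPKM + 1 and a summed level of 162 FPKM in Tgfbr2-deficient cells and 24.0 FPKM in control cells. The most abundant was Myl9, a myosin light chain, at 45 FPKM in Tgfbr2-deficient cells and 4.46 FPKM in control cells. Vtn, which brain pericytes secrete, stood at 27.2 FPKM in Tgfbr2-deficient cells and 3.90 FPKM in control cells. All 17 fibroblast and meningeal markers rose, with a median of 2.38 and a sum of 1321 FPKM in Tgfbr2-deficient cells and 176 FPKM in control cells. Col1a1, a chain of type I collagen, led them at 404 FPKM in Tgfbr2-deficient cells against 44.1 FPKM in control cells. Of 9 megakaryocyte and platelet markers 7 rose and 1, Pf4, fell, with a median of 2.67. The list summed to 901 FPKM in Tgfbr2-deficient cells and 1885 FPKM in control cells. Pf4 made up most of both sums, at 747 FPKM in Tgfbr2-deficient cells and 1877 FPKM in control cells, so they mainly follow that gene. Itga2b, the platelet integrin, stood at 42.2 FPKM in Tgfbr2-deficient cells and 0.925 FPKM in control cells. Of 7 tested mast cell markers 5 rose and 0 fell, with a median of 4.91, led by Cpa3 at 129 FPKM in Tgfbr2-deficient cells and 2.93 FPKM in control cells.

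Erythroid markers had a median log2 fold of 1.99 on FPKM + 1, with 7 of 9 higher and 1 lower, and summed to 2379 FPKM in Tgfbr2-deficient cells and 418 FPKM in control cells. Neuron markers had a median of 1.29, with 12 of 12 higher, and neural progenitor markers a median of 1.11, with 11 of 12 higher and 0 lower. Over all tested genes 23.9% were higher and 14.7% were lower. The microglia and macrophage median was −1.08, and C1qb, the most abundant of that list, stood at 1083 FPKM in Tgfbr2-deficient cells and 2432 FPKM in control cells. No marker of these lists was at 0 FPKM in either group. The part of each of these cell types in the levels of the 8 genes was not tested.

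**Figure D4:**
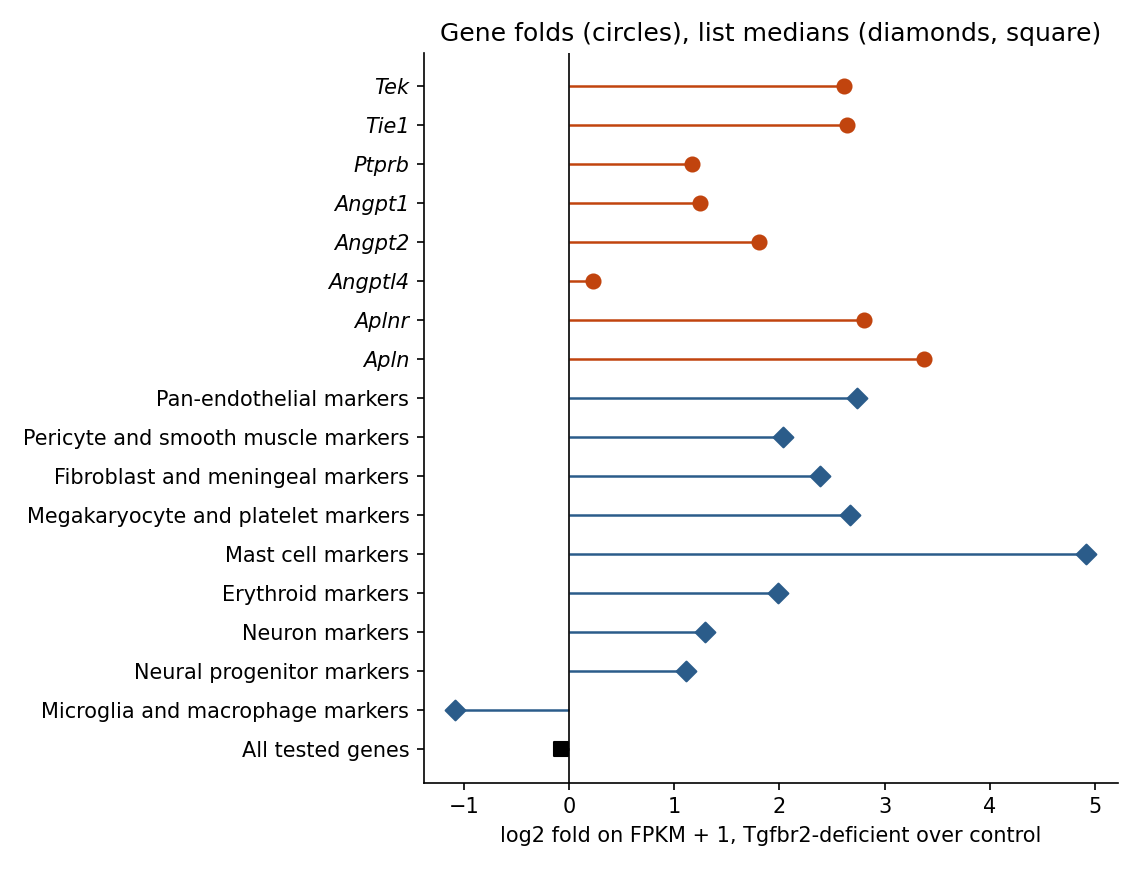
Log2 folds on FPKM + 1, Tgfbr2-deficient over control, of the 8 genes (orange circles), medians of marker lists (blue diamonds) and the median of all tested genes (black square). Tek, Tie1 and Aplnr stand close to the pan-endothelial median of 2.74, Angpt1 and Ptprb stand at 1.24 and 1.17, and the microglia and macrophage median is the one list median below 0.

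Around the Tie receptors outside the cell, of 13 tested ligands, integrin partners and sheddases 5 were higher, 2 were lower and 6 did not pass, with a median log2 fold of 0.45 on FPKM + 1. The shares were 38.5% higher and 15.4% lower, beside 23.9% higher and 14.7% lower over all tested genes, so the share that was lower is near that of all genes. Itgb3, the β3 integrin chain of endothelium and platelets, stood at 20.1 FPKM in Tgfbr2-deficient cells and 0.439 FPKM in control cells. Mmp14, a membrane protease, stood at 50.8 FPKM in Tgfbr2-deficient cells and 9.77 FPKM in control cells. Angptl2 rose to 9.25 FPKM in Tgfbr2-deficient cells, against 1.66 FPKM in control cells, and Svep1, an extracellular protein that binds TIE1, rose to 2.06 FPKM in Tgfbr2-deficient cells against 0.194 FPKM in control cells. The sheddase Adam17 fell to 36.1 FPKM in Tgfbr2-deficient cells, against 53.9 FPKM in control cells. The β5 integrin Itgb5 fell to 107 FPKM in Tgfbr2-deficient cells against 189 FPKM in control cells. Angpt4, the remaining angiopoietin of the mouse, stood at 0.459 FPKM in Tgfbr2-deficient cells and 1.09 FPKM in control cells and did not pass (q = 0.0522 in the authors' deposited table).

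In the intracellular relay of TIE2, of 25 tested genes 4 were higher, 5 were lower and 16 did not pass, with a median log2 fold of −0.19, beside −0.08 over all tested genes. With 16.0% higher and 20.0% lower, against 23.9% and 14.7% of all tested genes, the list lies near the background in both directions. Nos3, the endothelial nitric oxide synthase, stood at 9.13 FPKM in Tgfbr2-deficient cells and 0.673 FPKM in control cells. Ptk2, the focal adhesion kinase, rose to 15.4 FPKM in Tgfbr2-deficient cells, against 6.08 FPKM in control cells. The adaptor Grb14 rose to 2.18 FPKM in Tgfbr2-deficient cells against 0.432 FPKM in control cells. Dok2, a docking protein that TIE2 recruits and that myeloid cells also use, fell to 75.6 FPKM in Tgfbr2-deficient cells, against 173 FPKM in control cells. The others that fell, named after their values were seen, were Dok1, Tnip2, Pak1 and Birc5. Akt1, the kinase that carries the survival signal of TIE2, stood at 158 FPKM in Tgfbr2-deficient cells and 208 FPKM in control cells and did not pass.

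FOXO1, a transcription factor that TIE2 signalling holds inactive, is known to raise Angpt2. Foxo1 stood at 9.19 FPKM in Tgfbr2-deficient cells and 7.32 FPKM in control cells and did not pass (q = 0.246 in the authors' deposited table). Of 16 genes under its control, 6 were higher, 2 were lower and 8 did not pass, with a median log2 fold of 0.49. Angpt2, already counted above, is among the 16 genes and among the 6 that were higher. That is 37.5% higher and 12.5% lower, beside 23.9% and 14.7% of all tested genes, so the share that was lower is near the background. Gadd45a, a stress response gene, stood at 13.8 FPKM in Tgfbr2-deficient cells and 3.35 FPKM in control cells. Irs2, an adaptor of the insulin receptor, stood at 32.3 FPKM in Tgfbr2-deficient cells against 10.4 FPKM in control cells. Txnip fell to 97.6 FPKM in Tgfbr2-deficient cells, against 204 FPKM in control cells. Sesn1 fell to 67.2 FPKM in Tgfbr2-deficient cells against 166 FPKM in control cells.

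In apelin receptor signalling and apelin processing, 4 of 17 tested genes were higher, 6 were lower and 7 did not pass, with a median log2 fold of −0.12. The share that was higher, 23.5%, is near the 23.9% of all tested genes, and 35.3% were lower, beside 14.7% of all tested genes. Gnai1, an inhibitory G protein subunit, stood at 6.75 FPKM in Tgfbr2-deficient cells and 1.46 FPKM in control cells, whereas its relative Gnai2 fell to 446 FPKM in Tgfbr2-deficient cells against 741 FPKM in control cells. Arrb2, the β-arrestin that ends receptor signalling, fell to 86.1 FPKM in Tgfbr2-deficient cells, against 214 FPKM in control cells. Mme, a protease that cleaves apelin among many peptides, rose to 3.23 FPKM in Tgfbr2-deficient cells, against 0.588 FPKM in control cells. Fgfr1 rose to 19.7 FPKM in Tgfbr2-deficient cells against 8.44 FPKM in control cells. Klf4, a factor of quiescent endothelium, rose to 4.99 FPKM in Tgfbr2-deficient cells against 2.2 FPKM in control cells. Klf2, a relative of Klf4, fell to 54.6 FPKM in Tgfbr2-deficient cells against 105 FPKM in control cells, the opposite direction to Klf4. In control cells the median was 1.94 FPKM for the 18 pan-endothelial genes and 467 FPKM for the microglia and macrophage markers, most of which also fell. The part of each cell type in the levels of this list was not tested. The transcription factor Mef2c fell to 23.4 FPKM in Tgfbr2-deficient cells against 47.7 FPKM in control cells. Adrbk1, a kinase that phosphorylates active G protein-coupled receptors, fell to 65.2 FPKM in Tgfbr2-deficient cells against 118 FPKM in control cells. Arrb1, the other β-arrestin of most tissues, fell to 11.1 FPKM in Tgfbr2-deficient cells against 15.6 FPKM in control cells and lay closest to the threshold (q = 0.0496 in the authors' deposited table).

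Around Angptl4, 5 of 11 tested genes of lipoprotein lipase and its regulation were higher, 0 were lower and 6 did not pass, with a median log2 fold of −0.14 and a mean of 0.50, which differ in sign. The share that was higher was 45.5%, beside 23.9% of all tested genes, and 14.7% of all tested genes were lower. Lpl, the lipase that ANGPTL4 inhibits, stood at 99.3 FPKM in Tgfbr2-deficient cells and 114 FPKM in control cells and, like Angptl4, did not pass (q = 0.573 in the authors' deposited table). Vldlr, a lipoprotein receptor, rose to 2.52 FPKM in Tgfbr2-deficient cells, against 0.460 FPKM in control cells. The fatty acid carrier Fabp4 rose to 4.59 FPKM in Tgfbr2-deficient cells against 0.432 FPKM in control cells. Its relative Fabp5 rose to 103 FPKM in Tgfbr2-deficient cells against 67.3 FPKM in control cells.

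Both Apln and Angptl4 are known to be induced by low oxygen. Of 18 tested hypoxia-induced genes, 11 were higher, 1 was lower and 6 did not pass, with a median log2 fold of 0.81. That is 61.1% higher and 5.56% lower, beside 23.9% and 14.7% of all tested genes. Those that did not pass, named after their values were seen, were Pgk1, Ldha, Egln1, P4ha1, Pdk1 and Car9. Whether oxygen was low in either group was not tested. Vegfa, the main endothelial growth factor, stood at 26.0 FPKM in Tgfbr2-deficient cells and 2.08 FPKM in control cells. Adm, the peptide adrenomedullin, stood at 27.3 FPKM in Tgfbr2-deficient cells against 0.353 FPKM in control cells. Egln3, an oxygen sensor, rose to 10.2 FPKM in Tgfbr2-deficient cells, against 0.523 FPKM in control cells. Slc2a1, the glucose transporter of brain endothelium, rose to 191 FPKM in Tgfbr2-deficient cells against 31.7 FPKM in control cells. The kinase Pfkfb4 fell to 7.39 FPKM in Tgfbr2-deficient cells against 13.3 FPKM in control cells. Of 5 genes of the hypoxia-inducible factors and their control, 1 was higher and 0 were lower. That is 20.0% higher, near the 23.9% of all tested genes. The gene was Epas1, the subunit HIF-2α of endothelium, at 9.66 FPKM in Tgfbr2-deficient cells and 0.711 FPKM in control cells. Hif1a stood at 29.3 FPKM in Tgfbr2-deficient cells and 25.1 FPKM in control cells and did not pass.

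**Figure D5:**
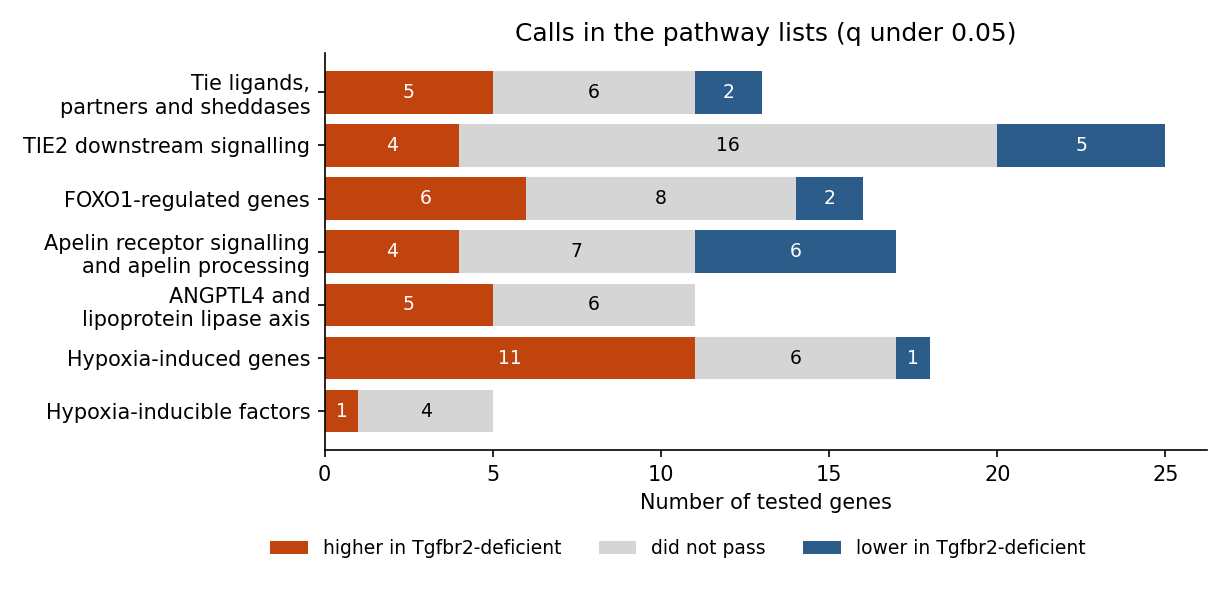
Number of tested genes in each of 7 pathway lists that were higher in Tgfbr2-deficient cells (orange), did not pass (grey) or were lower (blue), at a q-value under 0.05 in the authors' table. Hypoxia-induced genes have 11 of 18 in orange, while TIE2 downstream genes have 16 of 25 in grey.

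For each of the 8 genes the tested gene with the most similar pair of levels was found, as the smallest distance over both group values of log2(FPKM + 1). With 1 value per group such likeness rests on a single pair of numbers and is a description. The nearest were Serpinb1a for Tek, Pxdn for Tie1, Nt5e for Ptprb, Skap1 for Angpt1, Fam13c for Angpt2, Rbm18 for Angptl4, Alox12 for Apln and 8430408G22Rik for Aplnr, at distances of 0.0101 to 0.146. Like Apln, its neighbour Alox12 passed, with 15.9 FPKM in Tgfbr2-deficient cells and 0.460 FPKM in control cells. The neighbour of Aplnr, 8430408G22Rik, had 21.6 FPKM in Tgfbr2-deficient cells and 2.48 FPKM in control cells but did not pass (q = 0.260 in the authors' deposited table), whereas Aplnr, at 22.6 FPKM in Tgfbr2-deficient cells against 2.38 FPKM in control cells, had the smallest q-value. At close levels the authors' test called Aplnr and not its neighbour.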

How the data were processed

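RNA was measured in 4 Tgfbr2-deficient and 3 control libraries, grouped by the genotype in the labels. Per the labels' protocols, the SMART-Seq v4 kit gave complementary DNA and Nextera XT the libraries, and neither marks strand. Per the submitters' processing notes, reads were processed on mm10 with TopHat2, Cufflinks 2.2.1 and Cuffdiff. Neither the annotation nor the test settings are stated there. The authors' own deposited table holds, per the file headers, 1 FPKM value per gene and group, the log2 fold of Tgfbr2-deficient over control FPKM, a test statistic (a score), and the p-value and q-value of Cuffdiff. The table has 0 columns of values per library, so depth is unknown and no intervals or detection floors were set. The error measure is the authors' test across all genes.

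Genes that the authors tested (status OK) and that reached 1 FPKM in 1 group or both were called at a deposited q-value under 0.05. Folds of lists are medians of log2(FPKM + 1). All 238 list symbols matched the table, 1 through a RefSeq synonym. From each pathway list the text names the 4 called genes of smallest p, ties ordered by fold, and those against the majority, from each marker list the 2 of highest FPKM, and for each of the 8 genes its nearest gene. Others were named after their values were seen, and not all genes that the rule names are given. The 8 genes and all lists were chosen with earlier results of these data known. Coordinates printed are from GENCODE M21 unless another source is named. The counting of calls was tested on simulated data. Python 3.11.15, pandas 2.3.3 and numpy 2.4.6 were used.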

Additional observations from a re-analysis of the deposited data

How the results depend on the processing

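Of the 8 genes, 7 were higher under each alternative except 2: 6 were higher at q under 0.01, where Angpt2 was lost, and 4 of 5 tested at a minimum of 5 FPKM, where Angpt1, Angpt2 and Ptprb were not tested. None was lower under any alternative run, but all of them used the same deposited levels. Dropping the minimum FPKM, the pseudocount of 0.1 FPKM and the centring described next could not change the call of any of the 8 genes. Centring on 81 ribosomal protein genes adds 0.54 to each log2 fold, which turned that of Tgfbr2 to 0.0698, and centring on the median of tested genes adds 0.08. Over all tested genes, 1643 were higher at a minimum of 5 FPKM, 1026 lower at q under 0.01 and 368 lower with a log2 fold of at least 1. Genes lower in the 7 pathway lists numbered 5 with that fold. With 1 FPKM added, control ratios became 2.73 for Tie1 to Tek, 0.710 for Ptprb to Tek and 0.436 for Apln to Aplnr; the levels there are under 1 FPKM for Tek, Ptprb and Apln. Of the 8 genes, 2 lay above the pan-endothelial median with either pseudocount, Apln and Aplnr with 1 FPKM, Apln and Tek with 0.1 FPKM. No paired analysis was possible because the table holds no values per library, and for the same reason leaving out replicates was not run. Depth is unknown, so it cannot be said how far it limits the values under 1 FPKM.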
